A study of Mus musculus with 4 samples.

Results

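The genes described here make the extracellular matrix of the dentate gyrus (DG): collagens, laminins, small leucine-rich proteoglycans, lecticans, fibronectin, tenascin-C and the SPARC proteins, together with the proteases that cut the matrix and their inhibitors. They were chosen by gene symbol alone, as symbols that start with Col and a digit, Lama, Lamb, Lamc, Adamts, Mmp or Timp, plus a short list of named proteoglycans and glycoproteins. The array carried 90 such symbols. Of these, 38 genes had a probe set whose signal averaged 50 or more across the arrays and counted as measured, out of 7935 such genes in all, and each gene was read from its brightest probe set. The filter left out 52 symbols, of which 44 were below 50 on all 4 arrays. The dimmest measured gene, Fmod, had a mean signal of 50.8, and the brightest gene left out, Col6a2, had 45.4.

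RNA of the DG of male mice, C57Bl/6 in the labels and C57BL/6J or C57BL/6N in the study's methods, was hybridized to Affymetrix mouse genome arrays, 1 array for each of 4 groups, to set repeated electroconvulsive stimulation (ECS) beside chronic treatment with the selective serotonin reuptake inhibitor fluoxetine. The ECS mice had 11 sessions under isoflurane anesthesia, and the sham mice were handled the same way without the shock. The sample labels give 6 h after the last session for both, whereas the study's methods give a later time for the array tissue. The fluoxetine mice drank fluoxetine at 22 mg/kg per day with saccharin for 28 days, and the vehicle mice were their controls. It is not stated whether the vehicle water also held saccharin, and the fluoxetine mice had been chosen for weak facilitation at the mossy fiber synapse. The RNA of a group was pooled, so each value stands for 1 pool, no difference between groups has a test, an SD or a p-value, and the number of arrays sets the precision.

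Collagens are trimers of helical chains. Fibrillar collagens form the cables of vessel walls and meninges, collagen IV forms the sheet of the basement membrane around vessels, and laminins make the other network of that sheet. In brain tissue itself the matrix is mostly hyaluronan bound by lecticans, which form the nets around neurons, while the fibrillar matrix lies along blood vessels and in the meninges. Small leucine-rich proteoglycans bind collagen fibrils, metalloproteinases of the Mmp and Adamts families trim the matrix, and the Timp proteins inhibit them.

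The main pattern was a group of collagens and collagen-binding proteins with higher signals after both treatments, and the proteoglycan gene Ogn with much lower signals after both. A gene was called higher or lower where its signal differed at least 1.5-fold (0.58 on the log2 scale) after the log2 ratio had been centred on its median over all probe sets past the filter. With ECS, 9 of the 38 matrix genes (23.7%) were higher than in sham, beside 5.15% of all genes, and 4 (10.5%) were lower, beside 4.37%. With fluoxetine, 12 (31.6%) were higher than in vehicle, beside 5.85% of all genes, and 4 (10.5%) were lower, beside 5.05%. In both comparisons, 8 matrix genes (21.1%, beside 2.97% of all genes) were higher, namely Col6a1, Col3a1, Col5a2, Col1a2, Bgn, Sparc, Col4a1 and Fn1. Lamb1 and Ogn were lower in both (5.26%, beside 1.88%). Col3a1, Col5a2 and Col6a1 had both control signals under 50, and so passed the filter only through their treated arrays. Ogn likewise passed it only through its control arrays. Another 9 genes were called with 1 treatment only and 19 with neither. The 2 comparisons share no array.

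The median log2 ratio of the 38 genes was 0.17 with ECS and 0.27 with fluoxetine, with medians of 0.00 over all genes. The ratio was above 0 for 23 genes with ECS and for 24 with fluoxetine. The middle of the group thus lay near that of all genes, while part of it stood far above. Between the 2 control arrays, sham over vehicle, 4 matrix genes (10.5%, beside 2.00% of all genes) were higher in sham, none was lower (beside 1.20%), and the median was 0.09. Before centring, the median of all probe sets past the filter was -0.10 for ECS over sham, 0.12 for fluoxetine over vehicle and -0.50 for sham over vehicle. Because whole dissected tissue was measured, fewer cells of a type and less RNA per cell cannot be told apart in any of these values.

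**Figure D1:**
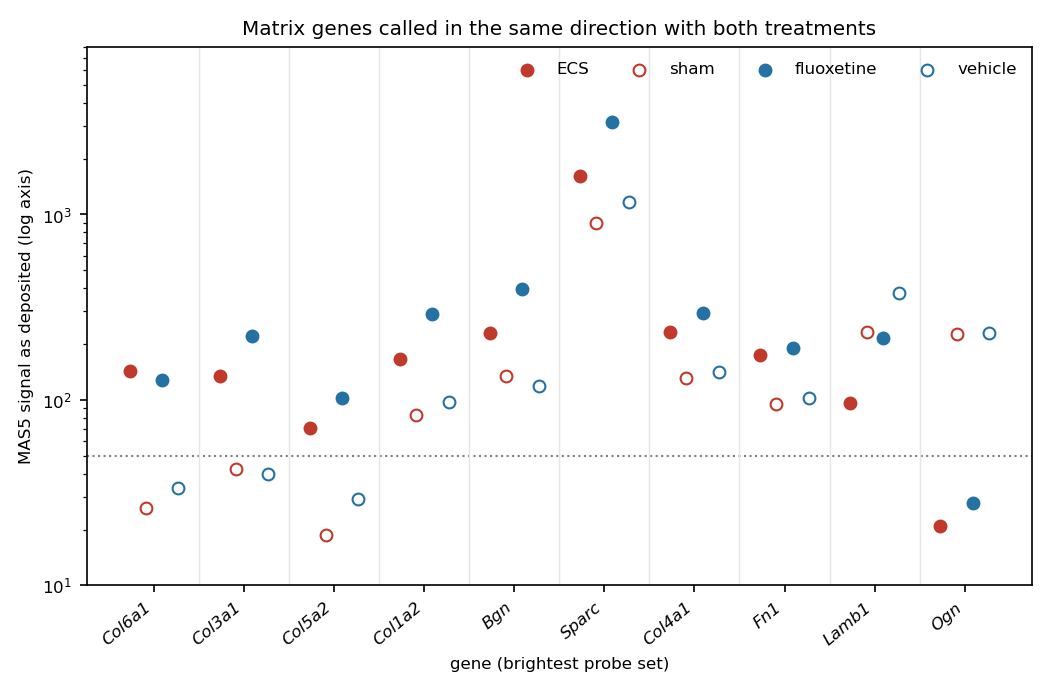
Signals of the 10 matrix genes called in the same direction with both treatments, on a log axis of MAS5 signal as deposited (no centring), with 1 point for each array and the mean-signal filter of 50 as a dotted line. In the first 8 genes both filled points lie above both open points, and in Lamb1 and Ogn both filled points lie below both open ones.

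The upstream bases of 5 of these genes are shown because they belong to the genes that moved in both comparisons. They comprise a fibrillar pair (Col3a1 and Col1a2), the collagen VI chain with the highest ECS ratio among the 38 genes (Col6a1), and both lower genes (Ogn and Lamb1). Each run holds the 250 bases before the RefSeq transcript start in GRCm38.p6, written 5′ to 3′ on the strand of the gene, and capitals mark every match to the TATA box TATAAA, the CCAAT box CCAAT, the GC box GGGCGG, the AP-1 site TGANTCA or the CRE TGACGTCA on either strand.
Col3a1 (chr1:45311288-45311537, plus strand): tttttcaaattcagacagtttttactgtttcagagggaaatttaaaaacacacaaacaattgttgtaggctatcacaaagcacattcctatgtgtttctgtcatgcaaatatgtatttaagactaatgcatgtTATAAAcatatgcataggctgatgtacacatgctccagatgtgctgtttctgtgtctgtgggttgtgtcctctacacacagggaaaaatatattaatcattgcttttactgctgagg
Col1a2 (chr6:4505368-4505617, plus strand): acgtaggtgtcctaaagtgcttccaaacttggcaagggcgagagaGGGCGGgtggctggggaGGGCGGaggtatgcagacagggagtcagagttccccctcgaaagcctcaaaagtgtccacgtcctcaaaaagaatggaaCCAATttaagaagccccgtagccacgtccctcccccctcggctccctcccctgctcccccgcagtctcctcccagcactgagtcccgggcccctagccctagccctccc
Col6a1 (chr10:76726045-76726294, minus strand): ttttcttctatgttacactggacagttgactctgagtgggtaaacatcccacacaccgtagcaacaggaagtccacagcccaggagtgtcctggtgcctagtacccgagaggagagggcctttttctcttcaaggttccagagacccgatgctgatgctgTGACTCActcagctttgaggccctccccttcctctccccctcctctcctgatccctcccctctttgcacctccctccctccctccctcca
Ogn (chr13:49607765-49608014, plus strand): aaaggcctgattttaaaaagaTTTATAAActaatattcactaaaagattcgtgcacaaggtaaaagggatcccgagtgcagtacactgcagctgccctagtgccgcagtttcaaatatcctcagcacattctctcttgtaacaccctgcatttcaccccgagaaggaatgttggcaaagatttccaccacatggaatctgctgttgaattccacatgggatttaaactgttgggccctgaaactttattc
Lamb1 (chr12:31265043-31265292, plus strand): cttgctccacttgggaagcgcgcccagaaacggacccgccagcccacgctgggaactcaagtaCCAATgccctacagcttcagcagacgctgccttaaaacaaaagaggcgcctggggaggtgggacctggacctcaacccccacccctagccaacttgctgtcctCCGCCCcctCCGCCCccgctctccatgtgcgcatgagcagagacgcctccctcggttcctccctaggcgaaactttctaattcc

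Col3a1 held TATAAA with its first base 117 bases before the start. Col1a2 held CCAAT at 109 bases and GGGCGG at 205 and 188 bases before the start. In Col6a1 the only match was the AP-1 letters TGACTCA at 90 bases. In Ogn a TTTATA and a TATAAA, at 229 and 227 bases, overlapped in a stretch that reads the same letters on both strands. Lamb1 held CCAAT at 187 bases and the reverse GC box CCGCCC at 84 and 75 bases. No motif was thus shared by all 5 runs, and the 3 collagen runs held different motifs. RefSeq's windows hold 300 bases, of which only the 250 before the start were searched, not the 50 after it. In these 250 bases, TATAAA occurred in 12.4% of 32851 windows, CCAAT in 33.8%, GGGCGG in 32.7%, TGANTCA in 6.75% and TGACGTCA in 1.55%. A window was at hand for 26 of the 38 matrix genes, of which 6 held TATAAA, 10 CCAAT, 17 GGGCGG, 1 TGANTCA and 0 TGACGTCA. These are matches of letters only.

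Among the fibrillar collagens, Col3a1, Col5a2 and Col1a2 were higher after both treatments. Col3a1, the chain of collagen III in elastic vessel walls, had a signal of 135 on the ECS array against 42.5 on the sham array, and of 222 on the fluoxetine array against 39.9 on the vehicle array. Both treated arrays thus stood above both controls, by 3.40-fold with ECS (log2 1.77) and 5.10-fold with fluoxetine (log2 2.35). Both control signals were under 50, and with all signals under 50 taken as 50 the ratios were 1.52 and 2.03. Its dimmer probe set, under the filter, had 9.9 with ECS against 6.1 with sham, and 18.3 with fluoxetine against 12.2 with vehicle. That is a smaller gap in both comparisons.

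Col5a2, a chain of collagen V, which starts and limits collagen I fibrils, had 70.8 with ECS against 18.6 with sham, and 102 with fluoxetine against 29.2 with vehicle. Its log2 ratios of 2.02 and 1.68 shrank to 0.59 and 0.91 with signals under 50 taken as 50, still above 0.58. Its dimmer probe set, under the filter, had 39.3 with ECS against 5.4 with sham and 61.4 with fluoxetine against 7.7 with vehicle. Col5a2 is the gene next to Col3a1 on chromosome 1.

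Col1a2, the alpha2 chain of collagen I, had 167 with ECS against 82.5 with sham, and 291 with fluoxetine against 97.8 with vehicle, with no array under 50. Its ratios were 1.12 and 1.45 at a control spread of 0.25. The control spread is the scaled median absolute deviation of sham over vehicle among the 500 probe sets nearest in signal. Col1a1, the partner chain that forms most of the collagen I trimer, was under 50 on every array, at 42.0 with ECS, 15.9 with sham, 35.4 with fluoxetine and 22.8 with vehicle.

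The other collagen V chains on the array did not follow Col5a2. Col5a3 was under 50 on every array, at 25.1 with ECS, 27.7 with sham, 32.3 with fluoxetine and 17.1 with vehicle. Col5a1 had 60.5 with ECS against 88.9 with sham, and 43.9 with fluoxetine against 66.7 with vehicle. It was called lower with fluoxetine only (-0.73, against -0.46 with ECS), and its 2 control arrays differed by 0.92, more than either treated array did from its own control. With signals under 50 taken as 50, its fluoxetine ratio was -0.54, no longer a call, and with the control arrays exchanged its ECS ratio was 0.46. Col11a2, a chain of the cartilage collagen XI, was near its controls, at -0.05 with ECS and 0.30 with fluoxetine. In all, 3 of the 5 fibrillar genes were higher with both treatments, beside 2.97% of all genes, and the medians of the family were 1.12 and 1.45. Col3a1 and Col5a2 passed the filter only through their treated arrays, so the filter itself favours this count and these medians.

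In the collagen IV family of the basement membrane, the linked genes Col4a1 and Col4a2 gave different sizes. Col4a1 had 232 with ECS against 132 with sham, and 295 with fluoxetine against 142 with vehicle, so it was higher by 0.91 and 0.94. Its dimmer probe set, under the filter, had 64.5 with ECS against 36.9 with sham, and 47.2 with fluoxetine against 40.3 with vehicle, which is less of a gap with fluoxetine. Col4a2, whose chain joins 2 Col4a1 chains in the same trimer, had ratios of 0.31 and 0.32 and was called with neither treatment. The starts of these genes lie 22 bases apart on opposite strands of chromosome 8, so their 300-base windows share 78 bases. Col4a5, a chain of a less widespread collagen IV trimer, had 37.5 with ECS against 30.4 with sham, and 117 with fluoxetine against 50.9 with vehicle. It was called with fluoxetine only, at 1.08 against 0.40 with ECS, and the ECS value rested on signals under 50.

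Col6a1, a chain of the beaded collagen VI filaments that link basement membranes to the fibrillar matrix, had the highest ECS ratio of the 38 genes. Its signals were 142 with ECS against 26.0 with sham, and 128 with fluoxetine against 33.5 with vehicle. This was 5.86-fold (log2 2.55) with ECS and 3.52-fold (log2 1.82) with fluoxetine, and 1.59 and 1.24 with signals under 50 taken as 50. The neighbouring Col6a2, whose chain shares the trimer, missed the filter and had 11.4 with ECS against 53.1 with sham, and 54.1 with fluoxetine against 63.0 with vehicle. Col6a3, likewise under the filter, had 48.6 with ECS against 32.1 with sham, and 58.3 with fluoxetine against 36.5 with vehicle. The 3 chains of this collagen thus had no common pattern at these low signals.

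The remaining collagens measured were fibril-associated ones. Col9a3 had 19.2 with ECS against 35.3 with sham, and 92.8 with fluoxetine against 65.9 with vehicle. Its ECS ratio of -0.78 rested on 2 signals under 50 and was 0.08 with these taken as 50, and its fluoxetine ratio was 0.37. The dimmer probe sets of Col9a3, under the filter, had 30.1 and 7.2 with ECS against 9.8 and 2.9 with sham. With fluoxetine they had 90.8 and 11.6 against 53.8 and 4.1 with vehicle. They were thus higher with ECS, so the ECS direction of this gene is not settled. Col16a1 (0.49 with ECS, -0.36 with fluoxetine), Col19a1 (-0.20 and -0.32) and Col22a1 (0.30 and -0.09) were called with neither treatment. Over all 13 collagens measured, 5 were higher in both comparisons, beside 2.97% of all genes, and none was lower in both, beside 1.88%. Their medians were 0.40 with ECS and 0.37 with fluoxetine. Col3a1, Col5a2 and Col6a1 entered the 13 only through their treated arrays, so the filter itself favours the count of 5.

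**Figure D2:**
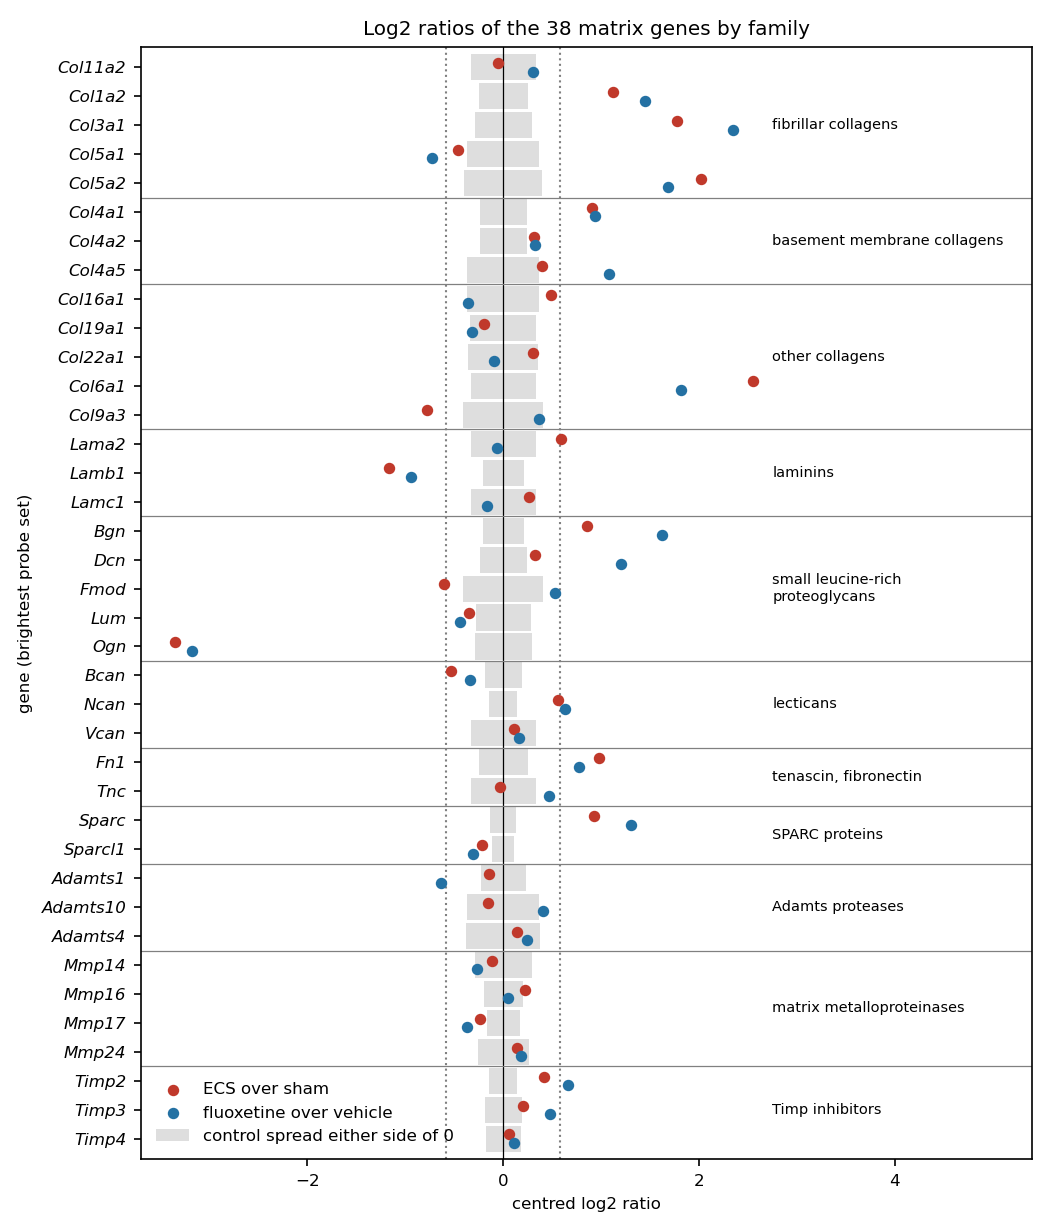
Centred log2 ratios of the 38 matrix genes by family, ECS over sham in red and fluoxetine over vehicle in blue, with the control spread at each gene's signal as a gray bar either side of 0 and dotted lines at 1.5-fold. Fibrillar collagens other than Col5a1 and Col11a2, and Col6a1, lie far to the right in both colours, Ogn lies at -3.35 and -3.18, and no Mmp gene passes a dotted line.

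The 3 laminin genes measured had no common direction. Lamb1, the beta1 chain, had 96.5 with ECS against 232 with sham, and 214 with fluoxetine against 379 with vehicle. It was called lower in both, by 2.25-fold (log2 -1.17) with ECS and 1.92-fold (log2 -0.94) with fluoxetine, where the control spread was 0.21. Its second probe set past the filter did not show this size, with 59.2 with ECS against 69.8 with sham and 93.4 with fluoxetine against 103 with vehicle, or -0.14 with ECS and -0.27 with fluoxetine. Lama2, the alpha2 chain of muscle and perivascular laminin, had 88.5 with ECS against 62.9 with sham, and 119 with fluoxetine against 114 with vehicle. It was just over 1.5-fold with ECS (0.59), but not with signals as deposited (0.49), and had -0.06 with fluoxetine. With the control arrays exchanged it had 0.23 and 0.29. Lamc1, the gamma1 chain found in most laminins, had 0.26 and -0.17.

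The small leucine-rich proteoglycans moved in different directions. Ogn, which encodes osteoglycin, also called mimecan, had 20.8 on the ECS array against 226.6 on the sham array, and 27.7 on the fluoxetine array against 230.1 on the vehicle array. Both treated signals were under 50, and after centring sham stood 0.48 above vehicle. The ratios were -3.35 (10.2-fold lower) with ECS and -3.18 (9.04-fold lower) with fluoxetine, where the control spread was 0.29. Ranked from the lowest, Ogn was number 1 of 7935 genes with ECS and number 2 with fluoxetine. With signals under 50 taken as 50, the ratios were still -2.10 and -2.32. The second probe set of Ogn gave the same picture, with 9.0 with ECS against 131 with sham, and 11.8 with fluoxetine against 157 with vehicle (-3.77 and -3.86). Omd and Aspn, the proteoglycan genes beside Ogn on chromosome 13, were under 20 on all arrays and had no ratio.

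Bgn, which encodes biglycan, a proteoglycan of the collagen fibril, went the other way. It had 230 with ECS against 135 with sham, and 395 with fluoxetine against 118 with vehicle, or 0.86 and 1.62. The 2 dimmer probe sets of Bgn gave larger ratios, 2.16 and 1.93 with ECS and 2.45 and 1.98 with fluoxetine, and on the brightest one sham stood 0.70 above vehicle. Its close relative Dcn, which encodes decorin, had 124 with ECS against 106 with sham, and 299 with fluoxetine against 120 with vehicle. It was thus called with fluoxetine (1.20) and not with ECS (0.32), although the ECS ratio was 0.64 with the control arrays exchanged. Lum, the neighbour of Dcn on chromosome 10 and the gene for lumican, had -0.35 and -0.44. Fmod, which encodes fibromodulin, had 25.8 with ECS against 41.9 with sham, and 82.8 with fluoxetine against 52.6 with vehicle, and its ECS ratio of -0.60 became 0.08 with signals under 50 taken as 50.

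Sparc, a secreted glycoprotein that binds collagen, was higher after both treatments at signals far above the filter. It had 1609 with ECS against 901 with sham, and 3158 with fluoxetine against 1174 with vehicle. The log2 ratios were 0.93 and 1.31 at a control spread of 0.13, with sham 0.12 above vehicle, and its second probe set gave 0.72 and 1.29. Its relative Sparcl1, or hevin, which astrocytes secrete and which promotes synapse formation, had 4842 with ECS against 6015 with sham, and 7942 with fluoxetine against 9019 with vehicle. It was called with neither (-0.22 and -0.31), and its control spread was 0.11.

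Fn1, the gene for fibronectin, which binds collagens and integrins, had 175 with ECS against 95.0 with sham, and 190 with fluoxetine against 102 with vehicle. It was higher by 0.98 and 0.77, and sham stood 0.40 above vehicle after centring. Its other probe set was under 20 on every array, at 11.8 with ECS against 8.5 with sham, and 12.8 with fluoxetine against 13.7 with vehicle. The order of the controls mattered for this gene and for Col4a1. With each treated array set against the other control array, the fluoxetine ratios became 0.37 for Fn1 and 0.53 for Col4a1, below the call, while the other 6 higher genes were still called in both. Tnc, which encodes tenascin-C, had -0.03 and 0.47.

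The lecticans, the hyaluronan-binding proteoglycans of the nets around neurons, gave 1 call in 3 genes, with fluoxetine. Ncan, neurocan, had 1330 with ECS against 966 with sham, and 2441 with fluoxetine against 1448 with vehicle. Its ratio was just over the call with fluoxetine (0.63) and just under it with ECS (0.56), beside a control spread of 0.14. Its second probe set had 0.29 with ECS and 0.75 with fluoxetine. Bcan, brevican, had ratios of the other sign, -0.53 and -0.34, with 205 with ECS against 316 with sham and 321 with fluoxetine against 374 with vehicle. Vcan, versican, had 0.11 and 0.16. Acan, aggrecan, missed the filter, with 24.0 with ECS against 44.1 with sham, and 60.3 with fluoxetine against 41.1 with vehicle.

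Proteases of the matrix were mostly near their controls. The 4 Mmp genes measured, Mmp14, Mmp16, Mmp17 and Mmp24, are all membrane-type enzymes, and none was called. The brightest, Mmp17, had 412 with ECS against 520 with sham, and 655 with fluoxetine against 778 with vehicle (-0.24 and -0.37), Mmp16 had 0.22 and 0.05, and the ratios of Mmp14 and Mmp24 lay between -0.27 and 0.18. The secreted gelatinases Mmp2 and Mmp9 were under 50 on every array. Of the Adamts enzymes, Adamts1, which cuts lecticans, had 179 with ECS against 210 with sham, and 168 with fluoxetine against 241 with vehicle. It was called lower with fluoxetine (-0.64), not with ECS (-0.14), and not with signals as deposited (-0.52). Adamts4, another lectican-cutting enzyme, had 0.14 and 0.24 on its brightest probe set, and 0.75 and 0.18 on the other. Adamts10 had -0.16 and 0.41, but its controls stood 1.36 apart, and with the control arrays exchanged its values were 1.20 and -0.96, so its direction is not settled.

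Of the inhibitors, Timp2 had 957 with ECS against 765 with sham, and 1280 with fluoxetine against 746 with vehicle. It was called with fluoxetine (0.66) and not with ECS (0.42), with sham 0.54 above vehicle. With the control arrays exchanged the call passed to the other treatment, at 0.96 with ECS and 0.11 with fluoxetine. Across its 5 probe sets past the filter, the ECS ratios were 0.31 to 0.93 and the fluoxetine ratios 0.43 to 1.18, with 3 of the 5 past 1.5-fold in each comparison. Timp3 had 0.20 and 0.48, and Timp4 had 0.06 and 0.11. Timp1 missed the filter with a mean signal of 42.0, and had 46.6 with ECS against 21.4 with sham, and 86.6 with fluoxetine against 13.3 with vehicle.

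**Figure D3:**
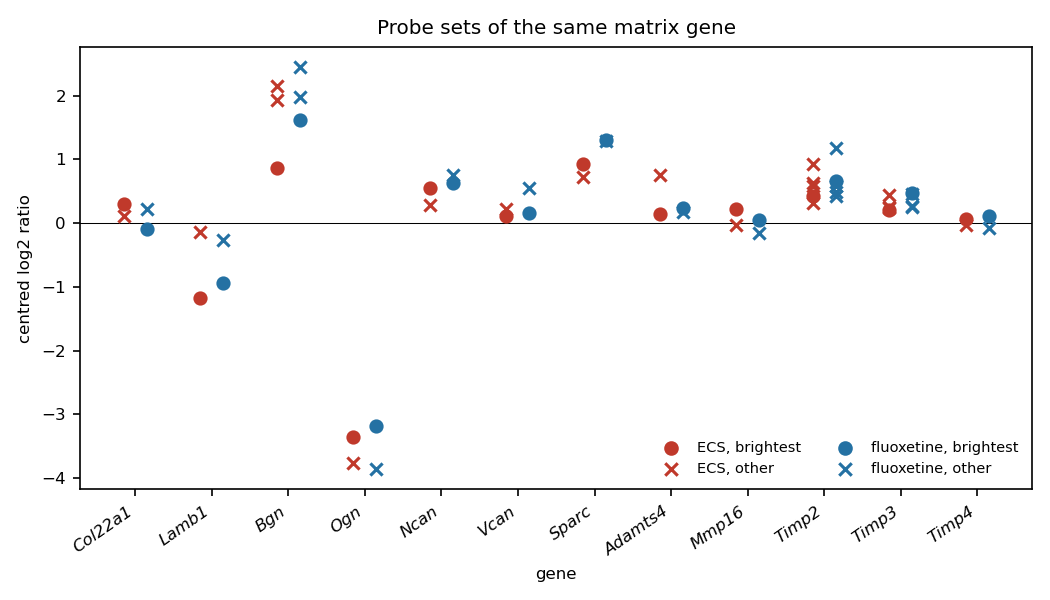
Centred log2 ratios of the 12 matrix genes that had 2 or more probe sets past the filter, with a dot for the brightest probe set and a cross for each other one, ECS over sham in red and fluoxetine over vehicle in blue. The crosses of Ogn, Bgn and Sparc lie on the same side as the dots, and those of Lamb1 lie near 0.

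Gene by gene, the ratios of the 2 treatments ran alike. Spearman's rho between the ECS and fluoxetine ratios was 0.75 over the 38 matrix genes, 0.73 over 37 without Ogn, and 0.49 over all 7935 genes. The genes of a comparison share the same 2 arrays, so this is a description without a test. After each array had been centred on its own median, both treated arrays stood above both control arrays for 19 of the 38 matrix genes, beside 24.4% of all genes, and below them for 7 (18.4%, beside 23.1%). With a gap of at least 1.5-fold between the nearest treated and control arrays, a rule added after the data were seen, 6 matrix genes stood above (15.8%, beside 2.24%), which were Bgn, Col1a2, Col3a1, Col5a2, Col6a1 and Sparc. Lamb1 and Ogn stood below by that rule (5.26%, beside 1.34%). Col3a1, Col5a2, Col6a1 and Ogn passed the signal filter only through the arrays where they were high, which favours these counts.

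**Figure D4:**
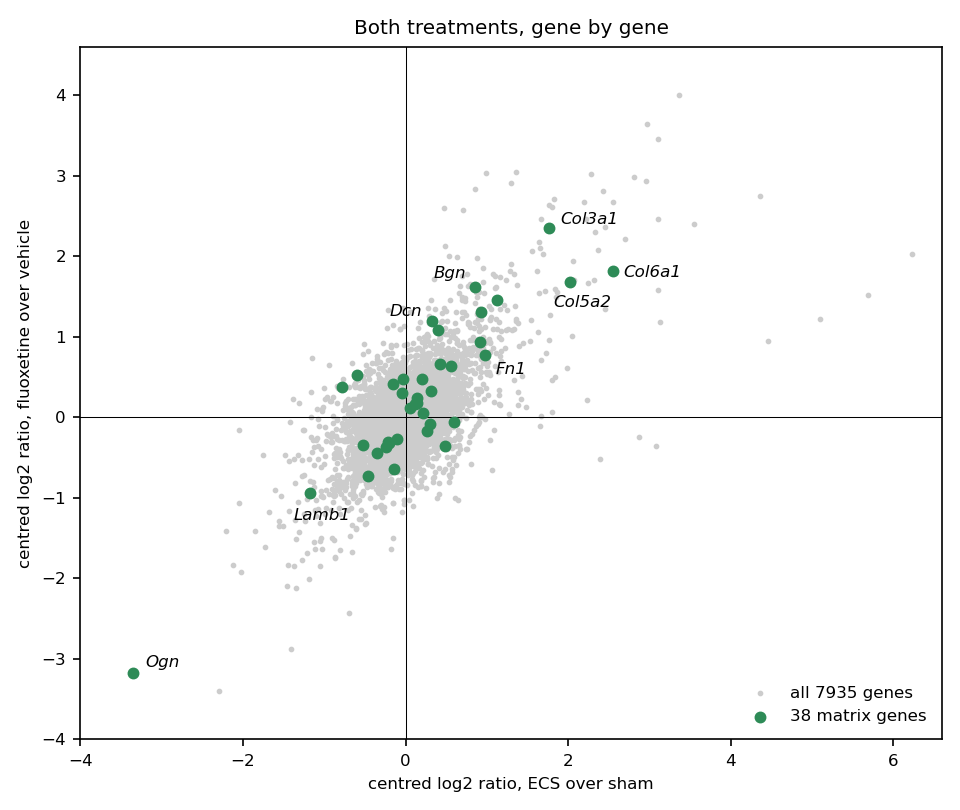
Centred log2 ratio of ECS over sham (x axis) against that of fluoxetine over vehicle (y axis), with 1 point per gene, the 38 matrix genes in green and all 7935 genes measured in gray. Ogn lies at the lower left at -3.35 and -3.18, and Col3a1, Col5a2 and Col6a1 at the upper right.

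Other matrix genes were set beside these from 7 lists, with 55 of 123 listed genes measured. Of them 8 were higher and 5 lower with ECS, 14 were higher and 4 lower with fluoxetine, and 8 were higher and 3 lower with both, at medians of 0.11 and 0.11. Of all genes, 5.15% were higher and 4.37% lower with ECS, 5.85% and 5.05% with fluoxetine, and 2.97% and 1.88% with both. Some of the genes higher with both, named below, passed the filter only through their treated arrays. In the list of collagen processing, 3 of 13 genes were higher with both treatments and none was lower. Pcolce, the enhancer of procollagen C-proteinase, had 113 with ECS against 49.7 with sham, and 228 with fluoxetine against 59.6 with vehicle (1.28 and 1.81). Its relative Pcolce2 had 1.13 and 1.09, and Loxl1, an oxidase that crosslinks elastic fibers, had 0.95 and 0.67. The other 10 were called with neither, among them Bmp1, the C-proteinase itself (0.23 and 0.25), Serpinh1, the collagen chaperone (0.36 and 0.30), and Ppib, the brightest, a prolyl isomerase (0.16 and -0.02).

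Among 8 linkers of the basement membrane, Nid1 (nidogen, which ties laminin to collagen IV) was higher by 1.21 and 1.40, Agrn (agrin) by 0.63 and 0.82, and Fbln2 (fibulin-2) by 1.36 and 3.05, whereas Fbln1 (fibulin-1) was lower, at -1.32 and -1.05. The hyaluronan receptor gene Cd44 was higher by 1.07 and 1.78 and the glypican gene Gpc1 by 1.07 and 0.86. Sham signals of Nid1, Fbln2, Cd44, Pcolce and Loxl1 were under 50. Vehicle signals of Nid1 (46.8), Fbln2 (27.9), Cd44 (40.4) and Loxl1 (46.1) were under 50 too. These genes thus passed the filter only through their treated arrays, and the filter itself favours such genes being higher. With signals under 50 taken as 50, the ECS ratio of Cd44 (0.21) and both ratios of Loxl1 (0.29 and 0.56) were no longer calls. The laminin receptor subunit Itga7 had -0.90 and -1.06 (the ECS value was -0.43 by that floor), while Itga6, another laminin receptor subunit, had 0.55 and 0.99. Csgalnact1, which starts chondroitin sulfate chains, had 107 with ECS against 325 with sham, and 162 with fluoxetine against 381 with vehicle, or -1.51 and -1.36. Of 5 serine proteases and inhibitors of the matrix, none was called with both, and the brightest, Htra1, had 0.10 and 0.02.

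Markers of meningeal and vascular cells, in which fibrillar matrix is made, were set beside the matrix genes. Of all genes, 5.15% were higher and 4.37% lower with ECS, and 5.85% and 5.05% with fluoxetine. Of the meningeal and perivascular fibroblast markers, 8 of the 14 on the array passed the filter, and their summed signal was 2751 with ECS against 3600 with sham, and 4099 with fluoxetine against 5042 with vehicle. Sums here and below are of deposited signals, which had no common scale. Over all genes they were 4503982 with ECS, 4671933 with sham, 7220466 with fluoxetine and 6587076 with vehicle. None of these 8 markers was higher, 2 were lower with ECS and 1 with fluoxetine, and the medians were -0.35 and -0.02. The brightest, the prostaglandin D synthase gene Ptgds, had -0.26 and -0.67. It made up most of each sum, with 2070 with ECS against 2644 with sham, and 2630 with fluoxetine against 3838 with vehicle. Igf2 (-1.25 and -0.16) and Slc6a20a (-0.93 and -0.23) were named after their values were seen. The other measured markers of the list were called with neither treatment. They were Islr (0.10 and 0.39), Mgp (-0.07 and 0.56), Cyp1b1 (-0.44 and 0.47), Igfbp2 (-0.56 and -0.02) and Foxc1 (-0.20 and -0.01). Islr, Mgp and Cyp1b1 thus had ratios above 0 with fluoxetine. Slc6a13, Slc22a6, Slc47a1, Aldh1a2, Foxd1 and Crabp2 of that list did not pass the filter. The endothelial list (9 genes) summed to 1324 with ECS against 1232 with sham, and 1926 with fluoxetine against 1738 with vehicle, at medians of 0.20 and 0.01, with Slco1a4 at 0.16 and -0.07 and only Kdr called higher, with ECS. The pericyte and smooth muscle list (6 genes) summed to 1471 with ECS against 1695 with sham, and 2582 with fluoxetine against 2236 with vehicle, at medians of -0.08 and 0.01, with Rgs5 at 0.14 and 0.26 and only Tagln called higher, with fluoxetine. The choroid plexus marker Ttr was under 20 on all 4 arrays, and Kl, the only gene of that list past the filter, had -0.29 and -0.89.

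Markers of glia and neurons moved with the treatments in part. All 10 astrocyte markers passed the filter, with sums of 15474 with ECS against 16086 with sham and 25460 with fluoxetine against 21853 with vehicle, and medians of 0.11 and 0.18. Gfap, the filament gene of reactive astrocytes, had 602 with ECS against 127 with sham, and 1048 with fluoxetine against 195 with vehicle (2.34 and 2.30), whereas Aldoc, the brightest, had -0.10 and -0.12. Of 9 granule cell markers, 4 were lower with ECS and 6 with fluoxetine, beside 4.37% and 5.05% of all genes, at medians of -0.57 and -1.26. The 4 lower with both, beside 1.88% of all genes, were Calb1 (-1.35 and -2.12), Dsp (-0.61 and -1.38), Tdo2 (-2.29 and -3.40) and Il16 (-1.05 and -1.84). The summed signal of the 9 markers was 8063 with ECS against 12771 with sham, and 9832 with fluoxetine against 18695 with vehicle. C1ql3, the brightest, had -0.11 and -0.48, so markers of the labelled tissue were measured on every array. The medians of oligodendrocyte precursor (5 genes, -0.31 and -0.35), myelin (7 genes, 0.10 and 0.20), microglial (9 genes, -0.03 and 0.19), pyramidal cell (7 genes, -0.06 and -0.01) and interneuron (7 genes, 0.28 and 0.17) markers lay within 0.35 of 0. Their brightest genes were at 0.12 and -0.12 (Olig1), 0.10 and 0.00 (Mbp) and -0.11 and 0.19 (Csf1r), and the genes of these lists called with both treatments were the interneuron gene Gad2 (0.83 and 0.85) and the pyramidal cell genes Bok (0.92 and 0.73) and Pou3f1 (-1.13 and -1.55). With signals under 50 taken as 50, the ECS ratio of Pou3f1 was 0.08, no longer a call. Called with fluoxetine only were the precursor genes Pdgfra (-0.37 and -0.74) and Sox10 (-0.26 and -0.60), which were lower. Higher with fluoxetine only were the microglial genes C1qb (0.27 and 0.70) and C1qc (0.11 and 0.70), the interneuron gene Vip (0.45 and 0.81) and the astrocyte gene Aqp4 (0.44 and 0.74). Whether a change in any of these cells has a part in the matrix ratios was not tested.

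**Figure D5:**
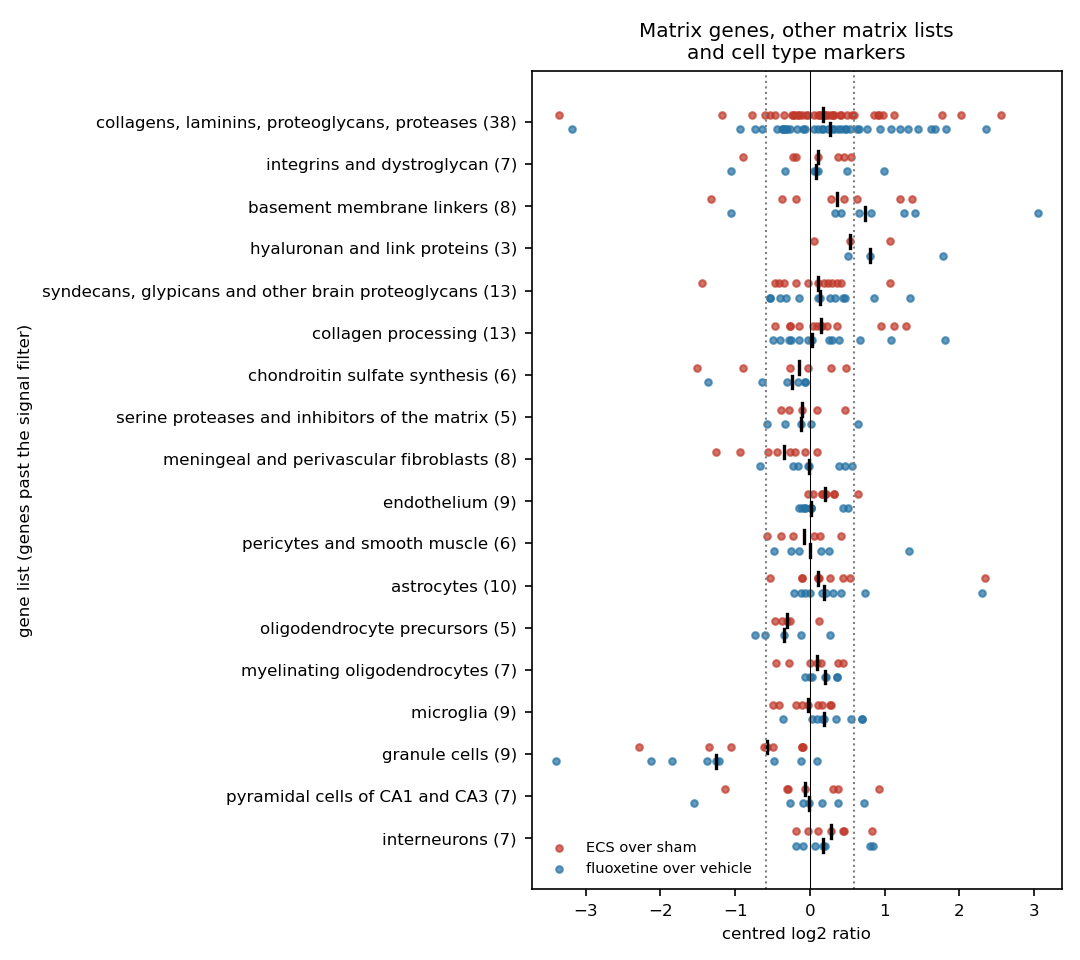
Centred log2 ratios of the matrix genes and of the lists set beside them, ECS over sham in red and fluoxetine over vehicle in blue, with 1 point per gene, a black bar at each median and dotted lines at 1.5-fold. The choroid plexus list, with 1 gene, is not drawn, and the granule cell markers have the lowest medians (-0.57 and -1.26) among the lists drawn.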

How the data were processed

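The deposited values are signal intensities that, per the submitters' processing notes, the authors made with MAS5, which merges the probes of a probe set into 1 number. They were used as linear intensity on 4 arrays (1 per group, pooled RNA), which had no common scale (median signals past the filter of 219 for ECS, 236 for sham, 365 for fluoxetine and 335 for vehicle). Scanner files were not used here.

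The 64 control probe sets were left out here. Probe sets with a mean signal below 50 were also left out, as in the study's methods, which left 13422 of 22690 probe sets. Probe sets with 1 gene symbol in the platform annotation were named, and the brightest per gene was kept (7935 genes). Log2 ratios of treated over control were centred on their median. A difference of 1.5-fold was a call. The steps were tested on simulated arrays. The changes planted there were well above 1.5-fold and the noise was the same at every signal. Calls near 1.5-fold at low signals were thus not tested. Python 3.11.15, numpy 2.4.6, pandas 2.3.3, scipy 1.17.1 and matplotlib 3.10.9 were used. Upstream sequences came from RefSeq (GRCm38.p6).

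The matrix genes, the lists and the alternatives were chosen with earlier results of these data known. Named were genes called with both treatments or with 1, Ogn, the 2 brightest others of each family, and of each other list those called with both or else the brightest. Col22a1, Mmp14, Mmp24, the genes below the filter, Bmp1, Serpinh1, Igf2, Slc6a20a, Itga6, Kdr and Tagln were named after their values were seen. So were Islr, Mgp, Cyp1b1, Igfbp2, Foxc1, Aqp4, Pdgfra, Sox10, C1qb, C1qc and Vip. Alternatives were other scalings, filters, a floor, a pseudocount, the mean over probe sets, exchanged control arrays and a 2-fold call.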

Additional observations from a re-analysis of the deposited data

Results flagged for a closer look

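In 3 matrix genes called with ECS, the fluoxetine ratio had the opposite sign, and the difference between the treatments was not tested in any of them. Col9a3 had -0.78 with ECS and 0.37 with fluoxetine on its brightest probe set. Its dimmer probe sets, under the filter, were higher with both treatments, so they did not have the opposite sign. Fmod had -0.60 with ECS and 0.53 with fluoxetine. Both had ECS and sham signals under 50. Lama2 had 0.59 with ECS and -0.06 with fluoxetine, with all signals above 50. The signs of Lama2 were alike with signals as deposited (0.49 and 0.06) and with the control arrays exchanged (0.23 and 0.29), and its ECS call was lost in both.

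Among the symbols left out by the mean-signal filter, 2 had a fluoxetine signal over 50 while both control signals were below it and both treatments were called higher. Timp1, an inhibitor of secreted metalloproteinases, had 86.6 with fluoxetine against 13.3 with vehicle, and 46.6 with ECS against 21.4 with sham. Col18a1, a basement membrane collagen whose end fragment is endostatin, had 55.7 with fluoxetine against 33.2 with vehicle, and 41.0 with ECS against 4.3 with sham. In both genes the ECS call rested on ECS and sham signals under 50. The control signals of Col18a1 also lay far apart, and its fluoxetine ratio of 0.62 was just over the call.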

How the results depend on the processing

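The 8 higher and 2 lower genes shared by both treatments were the same genes with signals as deposited, with each array centred on its own median, after quantile normalization, with signals under 50 taken as 50, with a pseudocount of 16 and with probe sets of a gene averaged. The averaging took only probe sets past the filter. It could not move Col1a2, Col3a1, Col4a1, Col5a2, Col6a1 and Fn1, which had 1 such probe set each. With the control arrays exchanged, 7 were higher in both, without Col4a1 and Fn1 and with Dcn, and the same 2 were lower. Asking only that 1 array reach 50 gave 46 matrix genes, with 10 higher in both (Col18a1 and Timp1 added) and 7 lower with ECS. Both added genes reached 50 on the fluoxetine array alone, where they were high, so this filter itself favours such a gain. A mean signal of at least 200 left 12 matrix genes, for which the counts were 3 higher with ECS, 5 higher with fluoxetine and 3 higher with both, and 1 lower with ECS, 1 with fluoxetine and 1 with both. A 2-fold call gave 4 higher with ECS and 4 with both (Col1a2, Col3a1, Col5a2 and Col6a1), and 2 lower with ECS, 1 with fluoxetine and 1 with both (Ogn). The 4 genes lower with ECS became 2 with signals under 50 taken as 50 and also 2 with the pseudocount. The floor turned the ECS ratios of Col9a3 to 0.08 and of Fmod to 0.08, which the floor itself explains, since ECS and sham signals then are equal. Without centring, Lama2 (0.49) and Adamts1 (-0.52) lost a call, and Bcan with ECS (-0.63) and Fmod (0.65), Timp3 (0.60) and Tnc (0.59) with fluoxetine gained one. Of 584 ratios of the 35 genes named by the rule under these alternatives, 532 moved by less than the control spread. That count overstates the stability, because some alternatives could hardly move a ratio. Leaving out the centring, for example, shifts all ratios alike, by -0.10 with ECS and 0.12 with fluoxetine, under nearly every control spread. Of the 584 ratios, the sign turned in 13, of which 2 had been called (Col9a3 and Fmod with ECS, above) and 11 had not, 8 of these with the control arrays exchanged.

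No paired analysis was possible because each group has 1 array. The rule of a gap between all treated and all control arrays was added after the data were seen. Pools of 1 per group leave the spread between mice unknown, and 26 of the 38 matrix genes had a mean signal under 200, where the control arrays differ most.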

Other observations

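Beyond the genes described, the proteoglycan list held large ratios in single genes. Spock3, a brain proteoglycan of the testican family, had 2697 with fluoxetine against 979 with vehicle (1.34), and 648 with ECS against 540 with sham (0.36). Prelp, a small leucine-rich proteoglycan that anchors basement membranes, had 28.5 with ECS against 82.6 with sham (-1.44), and 77.4 with fluoxetine against 103 with vehicle (-0.54). Gpc3, a glypican gene under the filter, had 8.5 with ECS against 72.2 with sham, and 15.0 with fluoxetine against 97.7 with vehicle, so both treated signals were low. Ptprz1, a receptor phosphatase that carries chondroitin sulfate and the brightest gene of that list, had 0.24 and 0.44. These genes other than Ptprz1 were named after their values were seen.

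Tagln, a smooth muscle gene, had 113 with fluoxetine against 41.4 with vehicle (1.33) and 38.6 with ECS against 48.0 with sham (-0.22). The endothelial receptor gene Kdr had 0.65 with ECS and 0.51 with fluoxetine. Both were likewise named after their values were seen.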
